A study of Mus musculus and Homo sapiens with 9 samples.

Results

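The genes described here are 10 transcription factors and regulators of transcription factors that set and keep T cell identity: TCF7, LEF1, BCL11B, IKZF1, IKZF2, IKZF3, SATB1, TOX, ID2 and ID3. They were chosen by name, with earlier results of these data known, so shares called among them are no separate test of the set. All 10 were found in the table of J.gamma1 cells, which has 64252 rows, and all 10 mouse orthologues in the table of splenic T cells, which has 43432 rows. All of them passed the filter on low counts in both tables. J.gamma1 is a T cell acute lymphoblastic leukemia (T-ALL) line derived from Jurkat, and its 4 libraries came from cells with a control shRNA (sh-NC, n = 2) or an shRNA against IRF2BP2 (sh-IRF2BP2, n = 2). The mouse libraries came from CD3+ T cells sorted with magnetic beads from the spleen, 2 of them from knockout mice with Vav-iCre+/-;Irf2bp2 fl/fl (KO) and 3 from controls. The controls are labelled wild type, whereas the methods give them as Vav-iCre-/-;Irf2bp2 fl/fl, so that floxed alleles would be shared by both groups and Cre would be carried by the KO mice alone. Vav-iCre acts in all blood cells from the stem cell on, so that deletion precedes T cell development. The methods describe more than 1 shRNA against IRF2BP2, and which of them the sh-IRF2BP2 libraries carry is not given in the sources used here. Nothing says that the libraries of a group came from separate cultures or separate mice, so p-values may measure technical spread in part.

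TCF7 (which encodes TCF-1) and LEF1 are related DNA-binding proteins of the HMG-box family. They bind beta-catenin or TLE corepressors, drive T lineage commitment in the thymus, and are high in naive and memory-like T cells and lower in effector and exhausted ones. BCL11B closes off other lineages at commitment. IKZF1 (Ikaros), IKZF2 (Helios) and IKZF3 (Aiolos) are zinc finger proteins that recruit the NuRD remodelling complex, and Helios is high in many regulatory T cells. SATB1 organizes chromatin in thymocytes, and TOX is needed for CD4 T cell development and for exhausted T cells. ID2 and ID3 lack a DNA-binding domain and block E proteins (TCF3, TCF4 and TCF12), the factors that bind E-boxes and hold up the program of early thymocytes.

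The DNA of 4 windows is shown because they lie just before start sites of some of the members that the results turn on. ID3 (ENSG00000117318) spans chr1:23557926-23559501 of hg38 on the minus strand, TCF7 (ENSG00000081059) chr5:134114681-134151865 on the plus strand, and IKZF2 (ENSG00000030419) chr2:212999691-213152427 on the minus strand. ID2 (ENSG00000115738) spans chr2:8678845-8684461 on the plus strand, SATB1 (ENSG00000182568) chr3:18345377-18445621 on the minus strand, and mouse Lef1 (ENSMUSG00000027985) chr3:131110471-131224356 of mm10 on the plus strand. Each is the 250 bases that precede a transcription start, read 5′ to 3′ on the strand of the gene, and capitals mark matches to 5 short motifs searched on both strands: the E-boxes CAGCTG and CACCTG, the TCF/LEF motif CTTTGA, the ETS motif CCGGAA and the RUNX motif TGTGGT. The searched letters of the 5 motifs cannot overlap in these matches. The human windows are from hg38, before the start of the representative (MANE Select) transcript in GENCODE 44, and the mouse window is from RefSeq on GRCm38.p6.
ID3 (chr1:23559502-23559751, minus strand): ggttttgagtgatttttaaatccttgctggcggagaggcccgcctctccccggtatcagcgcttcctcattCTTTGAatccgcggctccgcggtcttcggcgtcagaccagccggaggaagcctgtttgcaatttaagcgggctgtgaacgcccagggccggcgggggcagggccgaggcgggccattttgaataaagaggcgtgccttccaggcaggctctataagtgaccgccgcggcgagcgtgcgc
TCF7 (chr5:134114431-134114680, plus strand): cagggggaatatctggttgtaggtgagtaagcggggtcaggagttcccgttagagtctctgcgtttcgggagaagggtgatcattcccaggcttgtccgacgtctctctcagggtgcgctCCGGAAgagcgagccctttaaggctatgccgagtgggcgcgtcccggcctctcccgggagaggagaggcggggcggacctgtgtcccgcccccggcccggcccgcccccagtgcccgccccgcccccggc
IKZF2 (chr2:213151613-213151862, minus strand): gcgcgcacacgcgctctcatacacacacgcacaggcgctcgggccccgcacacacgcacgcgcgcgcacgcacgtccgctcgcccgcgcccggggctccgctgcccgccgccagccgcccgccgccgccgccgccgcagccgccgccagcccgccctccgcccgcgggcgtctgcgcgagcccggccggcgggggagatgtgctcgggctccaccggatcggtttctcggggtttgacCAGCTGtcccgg
Mouse Lef1, a start inside the gene (chr3:131156044-131156293, plus strand): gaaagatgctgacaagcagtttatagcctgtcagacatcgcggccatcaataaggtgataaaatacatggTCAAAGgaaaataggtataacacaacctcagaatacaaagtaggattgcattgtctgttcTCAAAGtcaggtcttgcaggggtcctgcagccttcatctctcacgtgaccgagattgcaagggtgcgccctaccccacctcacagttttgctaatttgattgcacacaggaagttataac
None of the 4 windows overlaps an annotated exon. The windows of ID2 and SATB1, which hold 229 and 30 bases of annotated exons, are not printed. The ID3 window held 1 CTTTGA and none of the other motifs. The TCF7 window held 1 CCGGAA, and the IKZF2 window 1 CAGCTG. Over the windows of 19061 human genes, CTTTGA was present in 9.08%, CCGGAA in 19.5% and CAGCTG in 13.1%, so each is a common word. The mouse Lef1 window held CTTTGA 2 times (as TCAAAG on the strand printed), and 13.8% of 32851 mouse windows held it. The windows before the other RefSeq starts of Lef1, which are not printed, held no CTTTGA, and neither did the window of human LEF1. RefSeq windows were at hand for 7 of the 10 mouse members, without Ikzf2, Ikzf3 and Tox. A match is a run of letters and was not tested as a binding site.

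The targeted gene was lower where the labels say it should be. IRF2BP2 was at 205 and 199 CPM (a count relative to the total of its library, with library sizes adjusted by TMM, the trimmed mean of M-values) in sh-NC and at 79.0 and 93.8 CPM in sh-IRF2BP2. Irf2bp2 had 4145, 4594 and 1915 counts in the controls and 0 and 0 in the KO libraries. Total counts lay between 16668577 and 37177523, and control 3 was the shallowest library. The 10 T cell markers summed to 1650 to 1920 CPM in J.gamma1 and to 3116 to 4628 CPM in the mouse libraries, so that T cell markers were present in both.

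In J.gamma1 cells, knockdown of IRF2BP2 went with higher RNA of several T cell identity factors. TCF7, IKZF2, SATB1, ID2 and ID3 passed the test, and no member passed it in the lower direction. The test was edgeR's quasi-likelihood test on 15819 genes, and a gene was called where its Benjamini-Hochberg adjusted p was under 0.05 and its fold change was 0.5 or more in size on the log2 scale. The 5 members called higher stand against a background of 5.46% of all genes called higher and 5.01% called lower. As the members were chosen with earlier results of these data known, this is a description and not a test of the set. DESeq2 called 5 members higher and 0 lower as well. The log2 fold change was above 0 for all 10 members, with a median of 0.51, against a median of 0.0067 over all genes. For 9 of the 10, both sh-IRF2BP2 libraries were above both sh-NC libraries, and this was so for 29.6% of all genes, with 28.7% in the lower direction.

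The largest differences were those of the ID genes. ID3 was at 30.5 and 34.6 CPM in sh-NC and at 112 and 88.2 CPM in sh-IRF2BP2. The groups were far apart, and the log2 fold change was 1.62 ± 0.15 (SE, n = 2 against 2, adjusted p = 0.00157), or 3.07-fold. ID2 was nearly silent in sh-NC, with 50 and 80 counts (1.9 and 2.6 CPM), and had 346 and 223 counts (11.9 and 7.6 CPM) in sh-IRF2BP2. Its log2 fold change was 2.1 ± 0.31 (adjusted p = 0.00677), or 4.29-fold, from a low level. Exons of ID2 overlap those of an antisense gene, ID2-AS1, over 6.6% of their bases, but that gene had at most 25 counts in any library. The sources used here do not say if reads were counted by strand.

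The HMG-box factors were abundant. TCF7 was at 532 and 501 CPM in sh-NC and at 799 and 743 CPM in sh-IRF2BP2, with a log2 fold change of 0.58 ± 0.13 (adjusted p = 0.0295). LEF1 was at 707 and 723 CPM in sh-NC and at 966 and 976 CPM in sh-IRF2BP2. The libraries of each group were close to each other, yet its log2 fold change of 0.44 ± 0.13 had an adjusted p of 0.0649 in edgeR and 0.00559 in DESeq2, and was below the fold threshold. BCL11B was at 201 and 211 CPM in sh-NC and at 236 and 250 CPM in sh-IRF2BP2 (log2 fold change 0.24 ± 0.12, adjusted p = 0.24). The groups did not overlap for LEF1 and BCL11B either, but neither was called.

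Of the Ikaros family, IKZF2 alone was called. It was at 355 and 230 CPM in sh-NC and at 528 and 556 CPM in sh-IRF2BP2, with a log2 fold change of 0.89 ± 0.20 (adjusted p = 0.0298). The sh-NC libraries differed from each other here, and the fold change was 0.61 without sh-NC 2 and 1.23 without sh-NC 1. IKZF1 was at 410 and 338 CPM in sh-NC and at 409 and 406 CPM in sh-IRF2BP2, and its groups overlapped (log2 fold change 0.12 ± 0.14, adjusted p = 0.607). IKZF3 was low, at 14.6 and 9.5 CPM against 16.3 and 14.8 CPM (log2 fold change 0.37 ± 0.23, adjusted p = 0.349). Its fold change was 0.088 without sh-NC 2 and 0.71 without sh-NC 1, where it was called (adjusted p = 0.0428). A test of whether the 3 family members differ from each other was not made.

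SATB1 was at 577 and 445 CPM in sh-NC and at 899 and 828 CPM in sh-IRF2BP2, a log2 fold change of 0.76 ± 0.16 (adjusted p = 0.0243). TOX was nearly level, with 208 and 205 CPM in sh-NC and 210 and 230 CPM in sh-IRF2BP2 (log2 fold change 0.09 ± 0.12, adjusted p = 0.675). Without sh-IRF2BP2 1, the calls of TCF7 (0.50 ± 0.22, adjusted p = 0.227) and SATB1 (0.67 ± 0.23, adjusted p = 0.112) were lost, and without sh-IRF2BP2 2 that of TCF7 (0.63 ± 0.22, adjusted p = 0.104), each with a fold change near that of all libraries and a larger SE. ID2, ID3 and IKZF2 were called with any 1 library left out. With every gene of at least 1 count in any library tested, ID2 and ID3 alone were called, and TCF7 (0.55), SATB1 (0.73) and IKZF2 (0.86) had fold changes close to those above.

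**Figure D1:**
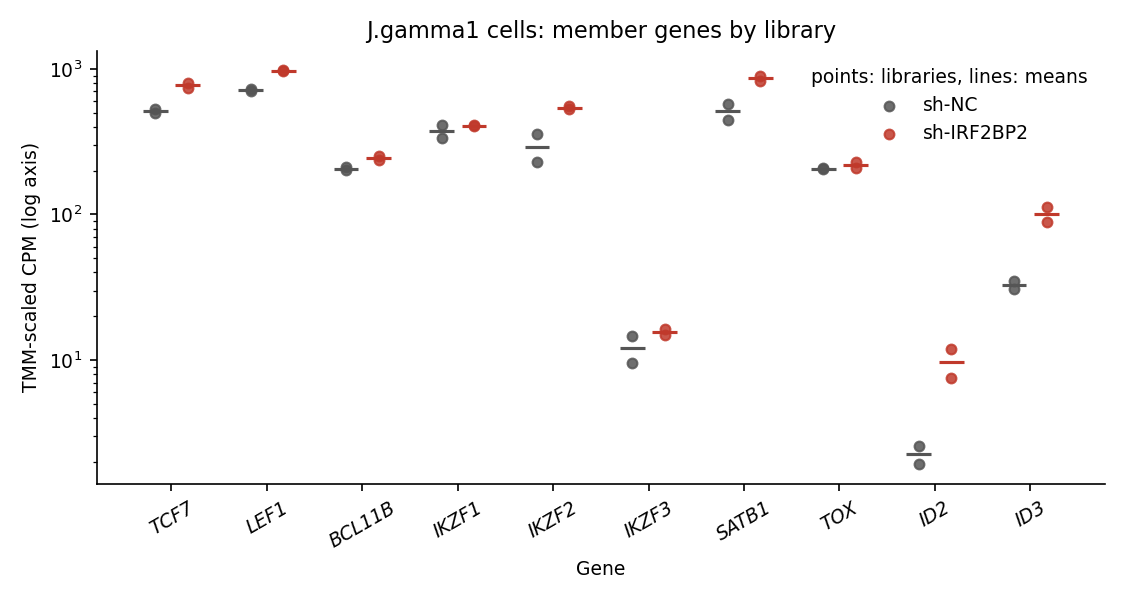
TMM-scaled CPM of the 10 members in the J.gamma1 libraries, on a log axis, with sh-NC in grey and sh-IRF2BP2 in red. Points are libraries and lines are group means; the gap between the groups is widest for ID2 and ID3, and the groups of IKZF1 overlap.

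Divided by the length of the longest coding transcript, to compare genes with each other, LEF1 and TCF7 led in both groups. In sh-NC the levels per kb were 200 ± 3.2 CPM for LEF1 and 155 ± 6.5 for TCF7 (SD, n = 2), followed by SATB1 at 65.3 ± 11.9 and IKZF1 at 59.7 ± 8.1, whose libraries overlapped. TOX was at 50.7 ± 0.61 CPM per kb, and ID3, IKZF2 and BCL11B came next, with ID3 and IKZF2 overlapping, as did IKZF2 and BCL11B. IKZF3 and ID2 came last, at 1.23 ± 0.37 and 1.11 ± 0.22 CPM per kb, and overlapped. In sh-IRF2BP2, ID3 stood in place 4, at 106 ± 18 CPM per kb, and overlapped SATB1 at 110 ± 6.4, while in sh-NC it was in place 6 of 10. Per kb of all exons merged, LEF1 and TCF7 led as well, ID3 went from place 8 to 3, and TOX was in place 3 and BCL11B in place 6 in sh-NC.

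Genes related to the members were called in both directions in J.gamma1 cells. Of 8 paralogs of the members that could be tested, ID1 (log2 fold change 1.04, adjusted p = 0.00713) and TOX2 (1.84, adjusted p = 0.00461) were called higher and BCL11A (-0.58, adjusted p = 0.0347) lower. ID4 had no counts, so that each of the 3 ID genes with counts was called higher. Among the E proteins that ID proteins block, TCF12 was called lower (310 to 204 CPM, log2 fold change -0.61, adjusted p = 0.0231), and TCF3 (0.19, adjusted p = 0.391) and TCF4 (0.25, adjusted p = 0.471) were not called. Of 6 cofactors of TCF and LEF proteins, CTNNB1, which encodes beta-catenin (0.70, adjusted p = 0.0114), and the corepressor TLE4 (0.61, adjusted p = 0.0229) were called higher. Of 13 NuRD subunits, the histone-binding RBBP4 was called lower (-1.17, adjusted p = 0.00221) and the other 12 were not called.

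Of 16 other T lineage factors, 7 were called higher and 1 lower. EOMES, a T-box factor of memory and effector cells, went from 11.6 to 115 CPM (log2 fold change 3.32, adjusted p = 0.000101). BACH2 (1.27), FOXO1 (1.26), KLF2 (1.16), PRDM1 (1.38), RUNX1 (0.66) and FOXP1 (0.55) were also called higher, and CBFB, the partner of RUNX proteins, was called lower (-1.02). Among the naive and memory T cell genes, S1PR1 (1.42), AXIN2 (0.65) and ACTN1 (0.65) were called higher, and IL7R (-1.06) was among those called lower. AXIN2 is a known target of the beta-catenin pathway, and S1PR1 lets T cells leave lymphoid tissue. Of 12 thymocyte genes, 5 were called lower and none higher: the recombination genes RAG1 (-2.72) and RAG2 (-2.01), DNTT (-2.05), PTCRA (-2.51) and CD1D (-0.58). E proteins are known to keep up the recombination genes and PTCRA. Of 4 innate-like and NK genes tested, ZBTB16 (1.17), NKG7 (1.39) and PRF1 (0.84) were called higher, and of 3 checkpoint receptors none was called. In a separate list of NK cell markers, 2 could be tested, of which 1 was called lower and 0 higher. That list summed to 27.0 and 29.3 CPM in sh-NC and to 17.3 and 19.3 CPM in sh-IRF2BP2.

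A short word in the 3′ untranslated region (3′ UTR) is shown because it was known from earlier work on these data. The shares below come from the same J.gamma1 libraries and are no separate test of the word. Genes with GGTCTA in the 3′ UTR of the longest coding transcript (2101 of 12492 genes) were called lower in 13.7% of cases, against 4.39% of the 10391 genes without it, and those with the longer AGGTCTA or GGTCTAA (1160 genes) in 17.7%. The 3′ UTRs of these classes also differed in length, with a median of 3224 bases with the word, 3392 with the longer words and 1208 without, and the share of length in this difference was not tested. The word occurs once in each of 3 members, in capitals here within 22 bases of the RNA written as DNA.
IKZF2: taacatatGGTCTAagagtgga
IKZF3: tattcgcaGGTCTAgcatatta
BCL11B: aaatggtgGGTCTAtaaatttg
None of these 3 was called lower. IKZF2, with the longer GGTCTAA, was called higher, and IKZF3, with the longer AGGTCTA, was not called. The other 7 members, TCF7, LEF1, ID2 and ID3 among them, do not carry the word there. The part of the word in the fold changes of the members was not tested.

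In T cells of Irf2bp2 knockout mice the picture was another. Ikzf2 was the sole member that passed the test, with higher RNA in KO, against a background of 2.47% of 15350 genes called higher and 0.111% called lower. Here a call required a change of 1 or more in size on the log2 scale and, by edgeR's quasi-likelihood test, an adjusted p under 0.05. This fold threshold is larger than the 0.5 of J.gamma1, so numbers of calls in the 2 systems do not compare directly. Without a fold threshold, edgeR called 1 member higher and 0 lower as well. At the threshold of 1, no member was called lower by edgeR or by DESeq2. Lef1, at -0.62 in DESeq2 (adjusted p = 1.64e-05), was past 0.5 in size. At an unadjusted p under 0.05 in edgeR there were 3 below 0 (Lef1, Satb1 and Id3) and 3 above 0 (Ikzf2, Ikzf3 and Tox), against 2488 of the 15350 genes in either direction. The log2 fold change was above 0 for 5 members and below 0 for 5, with a median of -0.054, against -0.018 over all genes. The KO libraries were both above all 3 controls for Ikzf2, Ikzf3 and Tox, and both below them for Tcf7, Lef1, Ikzf1, Satb1 and Id3, of which Tcf7 and Ikzf1 changed direction on another scale given below. Over all genes, 18.2% did not overlap in the higher direction and 17.8% in the lower.

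Ikzf2 was at 63.9, 49.5 and 81.0 CPM in the controls and at 138 and 135 CPM in KO. Its log2 fold change was 1.08 ± 0.20 (SE, n = 3 against 2, adjusted p = 0.0481), or 2.11-fold, just past both thresholds. The call was lost without control 1 (adjusted p = 0.162), KO 1 (0.282) or KO 2 (0.279), and without control 2, where the fold change was 0.94. Ikzf3 was at 159, 76.3 and 178 CPM in the controls and at 236 and 250 CPM in KO (log2 fold change 0.82 ± 0.33, adjusted p = 0.289). Control 2 stood apart here, and it also had the lowest summed plasma cell markers (430 CPM) and the highest summed B cell (249 CPM) and myeloid markers (394 CPM) of the controls. Ikzf1 was at 777, 732 and 802 CPM against 730 and 672 CPM (log2 fold change -0.14 ± 0.13, adjusted p = 0.681).

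Tcf7 was the most abundant member, at 1456, 1745 and 1503 CPM in the controls and at 1235 and 1253 CPM in KO. The log2 fold change was -0.33 ± 0.14 and did not pass the test (adjusted p = 0.319). Lef1 was at 554, 573 and 550 CPM in the controls and at 358 and 365 CPM in KO, with a narrow spread in each group. Its log2 fold change of -0.63 ± 0.12 had an adjusted p of 0.0513 in edgeR and 1.64e-05 in DESeq2, and was below the fold threshold. Bcl11b was at 365, 284 and 443 CPM in the controls and at 363 and 379 CPM in KO, inside the range of the controls (log2 fold change 0.03 ± 0.20). An antisense gene, Gm43352, shares 13.7% of the exon bases of Lef1 and has no row in the table.

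Satb1 was at 699, 742 and 773 CPM in the controls and at 546 and 506 CPM in KO (log2 fold change -0.49 ± 0.13, adjusted p = 0.123 in edgeR and 0.00535 in DESeq2). Tox was at 72.9, 66.1 and 63.0 CPM in the controls and at 91.2 and 78.5 CPM in KO (0.33 ± 0.13, adjusted p = 0.282). For Satb1 and Tox the groups did not overlap, and neither was called. Id2 was at 88.1, 79.9 and 61.9 CPM against 75.7 and 99.8 CPM (0.19 ± 0.20, adjusted p = 0.702), with overlap. Id3 was at 36.0, 40.6 and 18.3 CPM in the controls and at 17.1 and 13.9 CPM in KO, and the shallowest library, control 3, lay next to the KO libraries. Its log2 fold change was -1.03 ± 0.34 (adjusted p = 0.213), and without control 3 it was -1.31 (adjusted p = 0.0261), past both thresholds.

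**Figure D2:**
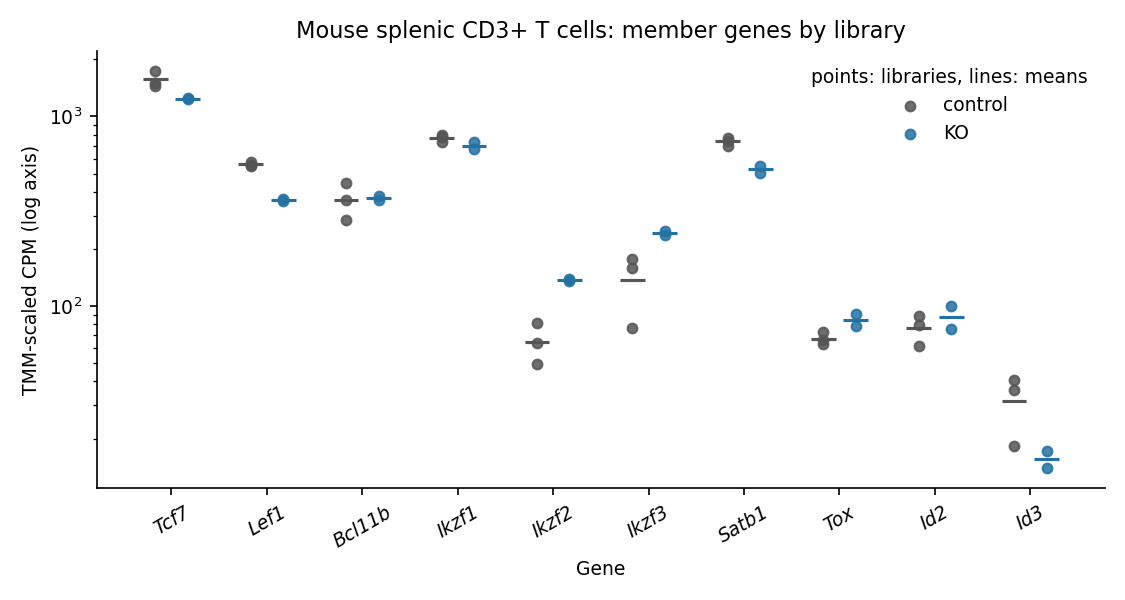
TMM-scaled CPM of the 10 members in the mouse T cell libraries, on a log axis, with controls in grey and KO in blue. Points are libraries and lines are group means; the KO libraries lie above all controls for Ikzf2, Ikzf3 and Tox and below them for Tcf7, Lef1, Ikzf1, Satb1 and Id3 (Tcf7 and Ikzf1 come out above 0 with scaling to T cell markers).

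Per kb of the longest coding transcript, Tcf7 led by a wide margin in the controls, at 635 ± 63 CPM per kb (SD, n = 3). Lef1 (161 ± 3.5), Ikzf1 (149 ± 6.9) and Satb1 (118 ± 5.9) followed, with no overlap between neighbours. Bcl11b, Id2, Ikzf3, Id3 and Tox lay between 44.9 and 17.0 CPM per kb, and each overlapped its neighbour. Ikzf2 was last at 6.99 ± 1.7. In KO, Lef1 (104 ± 1.3, n = 2) came after Ikzf1 (136 ± 7.9), Ikzf3 (66.4 ± 2.7) was in place 5, and Id3 (12.1 ± 1.8) was last. Per kb of all exons merged, in place of the longest coding transcript, Ikzf1 was in place 2 in both groups, while Lef1 went from place 3 to 4, Satb1 from 5 to 7 and Bcl11b from 4 to 3.

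Summed T cell and erythroid markers did not overlap between the groups, and bulk RNA cannot tell fewer cells of a type from less RNA per cell. The 10 T cell markers summed to 4006 to 4628 CPM in the controls and to 3116 and 3335 CPM in KO, and 1 of the 10 had a log2 fold change above 0 (median -0.40, none called). The 9 erythroid markers summed to 472 to 1789 CPM in the controls and to 3682 and 5205 CPM in KO, where Slc4a1, Klf1 and Gata1 were among the genes called higher. The 6 plasma cell markers summed to 430 to 1175 CPM against 1499 and 1128 CPM, so that the groups overlapped, and none was called. B cell markers (29.97 to 249 against 29.8 and 111 CPM), myeloid markers (34.3 to 394 against 78.6 and 136 CPM) and NK cell markers (89.6 to 170 against 88.9 and 198 CPM) overlapped between the groups. When the libraries were scaled to the T cell markers, the log2 fold changes of all genes moved up, to a median of 0.34, and Tcf7 (0.03) and Ikzf1 (0.22) came out above 0. On that scale Lef1 (-0.27), Satb1 (-0.13) and Id3 (-0.65) stayed below 0, and Ikzf2 was at 1.42 (adjusted p = 0.03). When markers of other cells and immunoglobulin and globin genes were left out before scaling, Lef1 had an adjusted p of 0.0467, below the fold threshold.

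**Figure D3:**
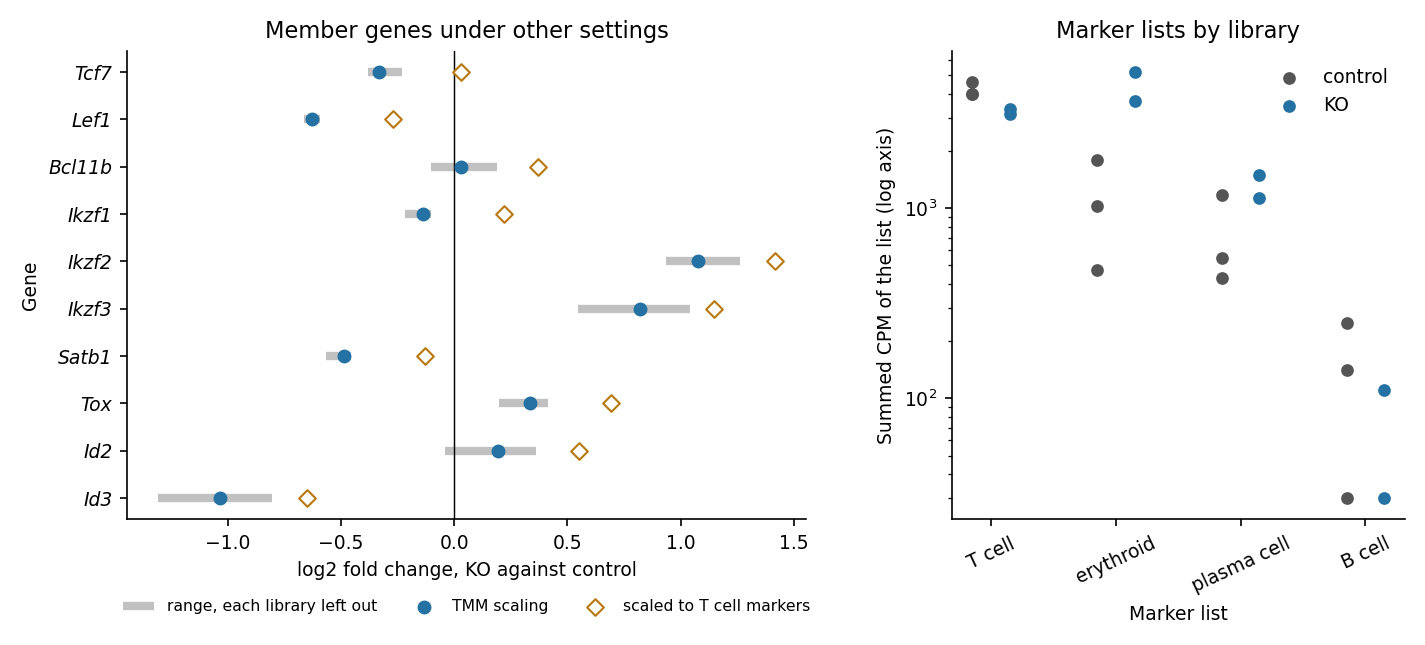
Left, log2 fold changes of the mouse members (KO against control) with TMM scaling (blue), with scaling to T cell markers (open diamonds) and their range when each library was left out (grey bars). Right, summed CPM of 4 marker lists per library on a log axis; the erythroid sums of both KO libraries lie above all controls and the T cell sums below them.

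Few genes around the members were called in the mouse. Of 8 paralogs tested, Tox2 was called higher (4.68 to 15 CPM, log2 fold change 1.68, adjusted p = 0.027), and it was also called in J.gamma1. Bcl11a was at 1.81 (adjusted p = 0.105) and Id1, at 1.27 and 0.796 CPM, at -0.69 (adjusted p = 0.738). None of the 6 TCF/LEF cofactors, the 3 E proteins (Tcf3 -0.04, Tcf4 0.39, Tcf12 0.03) or the 13 NuRD subunits was called. Of 16 other T lineage factors, Prdm1, which encodes Blimp-1 of effector and exhausted T cells and plasma cells, was called higher (10.9 to 29.3 CPM, 1.42, adjusted p = 0.0317). It is also made by plasma cells, whose markers are given above.

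None of the 8 naive and memory T cell genes tested was called in the mouse, and their median log2 fold change was -0.48, with none above 0. Of the 10 thymocyte genes tested none was called, with a median of -0.47. Genes of the T cell coreceptors in that list, picked out after their values were seen, differed from each other: Cd8b1 was at 484 CPM in the controls and 252 CPM in KO (-0.94, adjusted p = 0.0211, below the fold threshold), Cd8a at 616 and 406 CPM (-0.60, adjusted p = 0.0676) and Cd4 at 479 and 456 CPM (-0.07, adjusted p = 0.872). The part of this in the values of Lef1, Satb1, Tcf7 and Ikzf2 was not tested. By flow cytometry, which counts cells and not RNA, the paper found shares of CD3+, CD4+, CD8+ and regulatory T cells in the spleen to be close between these genotypes. The 7 checkpoint receptors all had a log2 fold change above 0, with a median of 1.59, and Tigit (8.77 to 49.4 CPM, 2.48, adjusted p = 0.0101) and Lag3 (7.73 to 27.6 CPM, 1.84, adjusted p = 0.0147) were called higher. Both are inhibitory receptors of activated T cells. Of 10 innate-like and NK genes, Gzmb, a granule protease of cytotoxic cells, was called higher (2.47, adjusted p = 0.0196), while 3 of the 10 were above 0 and the median was -0.33.

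The fold changes in the 2 systems were then compared directly, with the difference between the J.gamma1 and the mouse log2 fold change tested by edgeR over 12598 genes matched by symbol. The systems differ in species, in cell (a leukemia line against sorted primary cells) and in the manipulation (knockdown against deletion throughout development), and these cannot be told apart. This fit also gave both systems 1 shared spread, though the spread was wider in the mouse when each was fitted alone. The test was passed by 5 of the 10 members, each with the higher value in J.gamma1, against a background of 7.59% of genes, 2.44% above 0 and 5.14% below 0. ID3 differed most, with a difference of 2.66 ± 0.44 (adjusted p = 0.00901), with 1.62 in J.gamma1 and -1.04 in the mouse in this fit. ID2 differed by 1.91 ± 0.37 (adjusted p = 0.0173), SATB1 by 1.25 ± 0.21 (adjusted p = 0.00884), LEF1 by 1.07 ± 0.15 (adjusted p = 0.00484) and TCF7 by 0.91 ± 0.18 (adjusted p = 0.0193).

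IKZF2 did not pass this test, with a difference of -0.19 ± 0.33 (adjusted p = 0.861), and it was the member called higher in both systems. IKZF3 (-0.45 ± 0.48), IKZF1 (0.26 ± 0.18), BCL11B (0.21 ± 0.25) and TOX (-0.24 ± 0.18) did not pass either, which does not show that they respond alike, and IKZF1 and BCL11B changed sign with the mouse libraries scaled to T cell markers. With any 1 library left out, between 1 and 5 members differed, and LEF1 did in every case (adjusted p 0.00326 to 0.038). Without sh-IRF2BP2 1, LEF1 was the sole member left, and without KO 2 there were 2 members. With the mouse libraries scaled to T cell markers, a setting chosen after the data were seen, LEF1, SATB1, ID2 and ID3 differed and TCF7 did not (0.55, adjusted p = 0.0626).

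**Figure D4:**
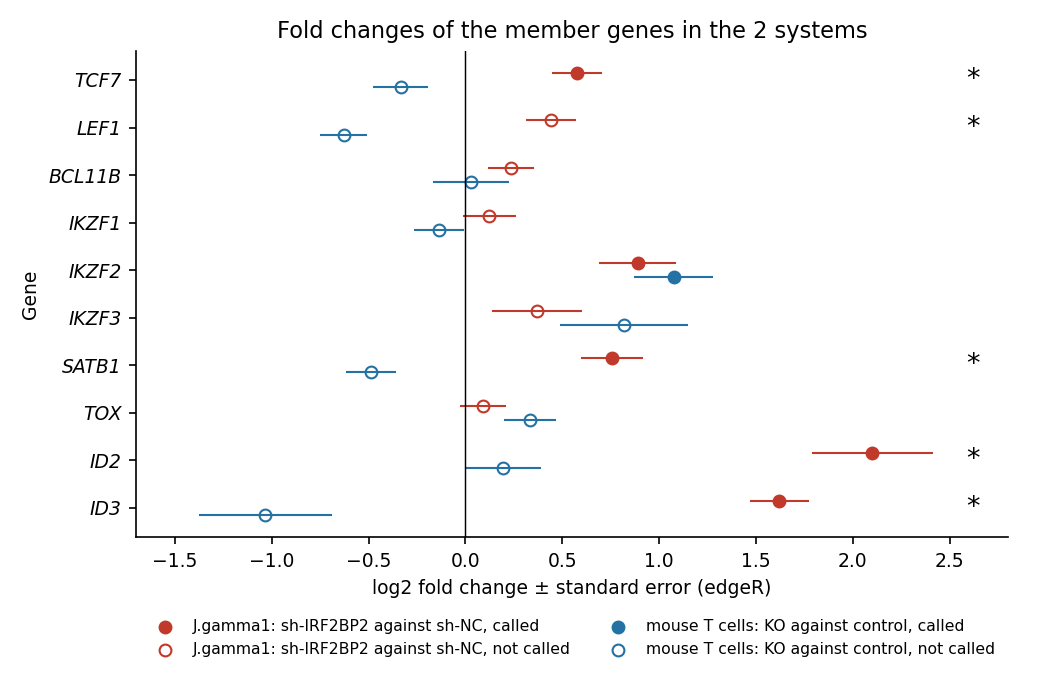
log2 fold change ± SE of each member in J.gamma1 cells (red, sh-IRF2BP2 against sh-NC) and in mouse T cells (blue, KO against control), filled where called. Asterisks mark the 5 members whose fold change differed between the systems: TCF7, LEF1, SATB1, ID2 and ID3.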

How the data were processed

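RNA-seq of 4 J.gamma1 libraries and 5 libraries of mouse splenic CD3+ T cells was analysed. The authors aligned reads with HISAT2 2.2.0 to hg38 or mm10, and used StringTie for abundance. The values the authors deposited are raw counts for each Ensembl gene, in whole numbers. How coverage became counts and if reads were counted by strand are not given in the sources used here. Rows with an identifier in GENCODE 44 (human) or M21 (mouse) were kept, with 98.0% and 99.8% of the counts.

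The edgeR package 4.0.16 in R 4.3.3 was used to filter genes (filterByExpr), scale libraries (TMM) and run quasi-likelihood tests by species, with p-values adjusted by Benjamini-Hochberg over all genes tested. The study ran DESeq2, which was used as an alternative (version 1.42.0). The difference between systems was a contrast in 1 fit of all 9 libraries, with 1 estimate of spread shared by both systems. The common coefficient of variation was 0.201 in that fit, against 0.165 in J.gamma1 and 0.271 in the mouse alone. The spread of the mouse libraries may thus be understated in the SE of the difference. SE is the log2 fold change divided by the square root of F. All 10 members are named, and of the other lists those genes that were called, the paralogs and the E proteins. Some items that met this rule are not reported here. The members and lists were chosen with earlier results of these data known. Replicates differed by more than sampling noise (chi-square per gene at least 18.2), which does not show that they came from separate cultures or mice. Each library was entered as 1 replicate in the tests. Same-numbered libraries deviated together weakly in J.gamma1 (correlation 0.23) and not in the mouse (-0.037). Deviations were taken from the mean of replicates 1 and 2, so each species gives a single value. Numbers were not taken as pairs in the main fits, and a fit with them as a block is given below.

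In simulated counts with 100 genes changed by 1 and 100 by 2 on the log2 scale, edgeR recovered 70 and 100 among 15819 genes in the J.gamma1 design (9 false calls), and 29 and 100 among 15350 genes in the mouse design (6 false calls). For the difference it recovered 4 and 66 among 9900 genes. Recovery in the J.gamma1 and mouse designs also required their fold thresholds of 0.5 and 1. Mouse genes changed by 1 thus sat at the threshold itself, so 70 and 29 do not compare as power. Changed genes were drawn from well-counted ones, and all genes of a system were given 1 common spread. Motifs and words were searched in Python 3.11.15. Alternatives were RLE scaling, other filters and rows, counts divided by 2, no fold threshold, the replicate block, each library left out and, for the mouse, scaling to T cell markers and marker genes left out. ChIP-seq and CUT&Tag data were not analysed here.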

Additional observations from a re-analysis of the deposited data

Results flagged for a closer look

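The fold changes of 5 members differed between J.gamma1 cells and mouse T cells by a direct test of the difference (edgeR, adjusted over 12598 matched genes). The difference, J.gamma1 minus mouse on the log2 scale, was 0.91 for TCF7, 1.07 for LEF1, 1.25 for SATB1, 1.91 for ID2 and 2.66 for ID3. Species, cell and manipulation differ together between the systems and cannot be told apart. No sample was tested for standing apart, since no group holds more than 3 libraries.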

How the results depend on the processing

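In J.gamma1 cells, testing every gene of at least 1 count in any library lowered the members called higher from 5 to 2 and the genes called from 864 to 319 higher and from 793 to 396 lower. Leaving out each library gave 3 to 6 members and 418 to 1608 genes higher, 0 members and 419 to 1143 genes lower, and log2 fold changes of IKZF1 from -0.0095 to 0.27. In the mouse, DESeq2 called 756 genes higher and 73 lower against 379 and 17. Scaling to T cell markers gave 768 and 10, and turned Tcf7 (0.030) and Ikzf1 (0.22). Leaving out each mouse library gave 0 to 1 members higher, 0 to 1 lower, 6 to 532 genes higher (fewest without control 1) and 1 to 35 lower, with Bcl11b from -0.10 to 0.19 and Id2 from -0.041 to 0.36. Where an arm kept 1 library, it was assumed to vary like the others. The difference between the systems was called for 1 to 5 members with each library left out (IKZF2 from -0.47 to 0.15), and scaling the mouse to T cell markers turned BCL11B (-0.13) and IKZF1 (-0.094). The causes were not tested.

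With the replicate number as a block, a pairing the labels do not state, J.gamma1 kept 5 members called higher, and 1 mouse member, Id3, was called lower (-1.31, adjusted p = 0.0282), with 35 genes lower. In J.gamma1 the block raised the genes at an edgeR adjusted p under 0.05 from 1764 to 3547. LEF1 (0.44) then had an adjusted p of 0.0161 and stayed below the fold threshold. Other settings kept each member count. Of the single-gene values under alternatives, in J.gamma1 92 kept direction and side of the threshold, 6 lost and 1 gained a call and 1 turned; in the mouse 119 kept, 4 lost, 2 gained and 5 turned; for the difference 92 kept, 15 lost and 3 turned. ID2 had as few as 50 counts in a library.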
